A study of Mus musculus with 8 samples.

Results

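The circadian clock genes analysed here were the 10 genes *Clock*, *Arntl*, *Per1*, *Per2*, *Per3*, *Cry1*, *Cry2*, *Nr1d1*, *Nr1d2* and *Dbp*, taken by gene name from a table of 55421 mouse genes. All 10 passed the filter on low counts and were among the 20477 genes tested, with counts per library from 118 for *Per2* in Veh replicate 1 to 3059 for *Nr1d2* in NRRA replicate 2. The libraries came from spermatogonial cultures that were started from testes of C57BL/6XDBA/2 F1 pups that were 6 days old and grown on irradiated mouse embryonic fibroblast feeders, so that RNA of feeder cells can be in every library. There were 4 groups of 2 libraries, each collected after 2 days: Veh in complete medium, RA in complete medium with 100 nM retinoic acid, NR (nutrient restriction) in a medium that was 10% complete medium and 90% Earle's balanced salt solution, and NRRA in the NR medium with 100 nM retinoic acid. The comparisons ask how the clock genes differed after retinoic acid, the signal that starts spermatogonial differentiation, after nutrient restriction, and after both together.

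As background, the mammalian clock is a loop of transcription in which CLOCK and BMAL1, the product of *Arntl*, bind E-box sequences and activate the *Per* and *Cry* genes, whose proteins return to the nucleus and inhibit CLOCK and BMAL1. In an interlocking loop the same pair activates *Nr1d1* and *Nr1d2*, which encode the nuclear receptors REV-ERB alpha and REV-ERB beta, and these repress *Arntl* by competing with the activating ROR receptors for a shared response element. *Dbp* is an output gene of the loop and encodes a factor that activates genes through D-boxes. The testis is a tissue in which rhythmic expression of these genes is known to be weak. All libraries were collected at 1 time after treatment, so a shift of phase and a change of the mean level cannot be told apart.

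Promoter windows of 300 bases, from 250 bases before to 50 bases after a RefSeq transcript start on GRCm38.p6, were found for 9 of the 10 genes, with 13 windows in all. *Per2* had no window. They were searched on both strands for the E-box CACGTG, the E-box variant CACGTT, the D-box TTATGTAA and the ROR/REV-ERB element, an A/T-rich stretch followed by GGTCA, whose matches did not overlap each other in the windows of these genes. Of all 32851 windows in the RefSeq table, 7.15% held CACGTG, 4.68% held CACGTT, 0.938% held TTATGTAA and 0.606% held the ROR/REV-ERB element. The windows of the repressor target *Arntl*, of *Nr1d1* and *Per3*, whose levels differed most clearly with retinoic acid and with nutrient restriction, and of *Cry1*, which held both E-box forms, are printed 5′ to 3′ on the strand of the gene, with matches to any of the motifs on either strand in capitals. They are chr7:113207261-113207560 on the plus strand for *Arntl*, chr11:98775328-98775627 on the minus strand for *Nr1d1*, chr4:151044616-151044915 on the minus strand for *Per3* and chr10:85185005-85185304 on the minus strand for *Cry1*.
Arntl: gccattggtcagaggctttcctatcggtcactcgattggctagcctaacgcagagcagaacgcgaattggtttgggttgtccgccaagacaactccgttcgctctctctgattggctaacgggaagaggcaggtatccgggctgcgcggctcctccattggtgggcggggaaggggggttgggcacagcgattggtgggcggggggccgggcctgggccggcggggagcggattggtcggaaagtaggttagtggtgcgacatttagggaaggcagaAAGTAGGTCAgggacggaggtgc
Nr1d1: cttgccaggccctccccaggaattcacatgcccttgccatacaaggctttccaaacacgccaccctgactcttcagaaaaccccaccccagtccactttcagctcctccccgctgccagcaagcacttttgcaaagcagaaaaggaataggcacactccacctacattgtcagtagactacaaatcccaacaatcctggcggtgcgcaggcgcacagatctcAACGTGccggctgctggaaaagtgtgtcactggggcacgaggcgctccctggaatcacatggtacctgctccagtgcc
Per3: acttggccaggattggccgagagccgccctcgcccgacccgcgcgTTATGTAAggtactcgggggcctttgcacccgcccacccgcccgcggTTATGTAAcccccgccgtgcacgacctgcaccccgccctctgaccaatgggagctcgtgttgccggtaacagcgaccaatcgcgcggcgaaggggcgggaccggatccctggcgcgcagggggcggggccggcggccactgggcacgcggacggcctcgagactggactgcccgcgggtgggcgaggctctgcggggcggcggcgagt
Cry1: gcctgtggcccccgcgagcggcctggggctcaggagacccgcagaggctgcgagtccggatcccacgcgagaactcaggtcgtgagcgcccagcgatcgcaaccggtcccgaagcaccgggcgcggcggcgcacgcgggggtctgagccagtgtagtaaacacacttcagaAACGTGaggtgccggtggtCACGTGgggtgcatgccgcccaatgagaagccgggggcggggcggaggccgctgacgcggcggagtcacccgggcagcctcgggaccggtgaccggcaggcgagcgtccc
Positions count from the transcript start, and each is the first base of the match as printed. The printed *Arntl* window held 1 match to the ROR/REV-ERB element, at 28, just inside the transcript, and *Nr1d1* held the variant E-box at -28. The other *Arntl* window, chr7:113207215-113207514, held none of the motifs. *Per3* held the D-box at -205 and at -158. *Cry1* held the variant E-box at -79 and the E-box at -60. Outside the printed windows, 1 of the *Per1* windows held an E-box at -166 and *Cry2* held the variant at -166, and these letters were not in the windows of *Clock*, *Dbp* and *Nr1d2*. A match is a description of the letters in the window and not evidence of binding.

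Total counts ran from 19261333 to 30023585 per library, and the biological coefficient of variation over genes was 3.35%. The Veh libraries differed from each other more than the pairs of the other groups, with a chi-square per gene of 3.93 against 1.58 to 2.12. The sums of several marker lists moved with the treatments that are compared here. The summed level of 9 fibroblast markers was 11975 to 12173 CPM (counts scaled to a common library total) in Veh, 9562 to 10293 in RA, 23210 to 24304 in NR and 20501 to 21172 in NRRA, and the sum of 8 markers of undifferentiated spermatogonia was 863 to 928, 326 to 333, 761 to 778 and 155 to 156 in the same order. By the edgeR test 8 fibroblast markers were higher and 0 lower in NR than in Veh, 1 and 5 in RA, and 7 and 2 in NRRA. The 6 germ cell markers summed to 825 to 843 CPM in Veh, 908 to 966 in RA, 997 to 1023 in NR and 1064 to 1086 in NRRA. By the same test 3 of them were higher and 3 lower in RA and in NRRA, and 4 were higher and 0 lower in NR. The sum for undifferentiated spermatogonia did not describe each of its 8 markers. With retinoic acid alone all 8 were lower than in Veh by the edgeR test. With nutrient restriction alone 4 were lower, 2 did not pass and 2 were higher, *Zbtb16* (log2 fold change 0.58) and *Id4* (0.55). Under the combined treatment 7 were lower, and *Id4* (0.09) did not pass. All markers of these 3 lists were detected, those of the labelled germ cells as well as those of fibroblasts. The sum of 7 Sertoli markers was lower in each treated group, at 286 to 311 CPM in Veh, 240 to 254 in RA, 158 to 164 in NR and 114 to 116 in NRRA. Most of that sum was *Inhbb*, at 261 and 239 CPM in the Veh libraries, and the Sertoli markers did not move together. Of the 6 tested, 2 were higher and 2 lower in RA and in NR, and 1 was higher and 2 lower in NRRA. *Clu* had 8.72 and 8.86 CPM in the Veh libraries and 85.4 and 75 with RA. The 5 Leydig markers summed to 7.68 to 9.07 CPM in Veh, 13.5 to 15 in RA, 5.77 to 7.03 in NR and 7.29 to 7.4 in NRRA, and the 5 macrophage markers to 253 to 255, 203 to 223, 286 to 288 and 263 to 277 in that order. Most of the Leydig sum was *Star*, at 6.19 and 7.87 CPM in Veh and 12.1 and 13.7 in RA. Only 2 Leydig markers were tested, with 1 higher in RA, 1 lower in NR and 0 past the test in NRRA. Of the macrophage markers 2 were higher and 0 lower in NR, 0 and 4 in RA, and 2 and 1 in NRRA. None of these markers was at 0 in every library. Clock genes are expressed by fibroblasts as well as germ cells, and the part of the shifts in these marker lists in the results was not tested. Gene positions are those of GENCODE M21 on GRCm38. In such bulk libraries fewer cells of a type and less RNA per cell cannot be told apart.

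Both activator genes differed from Veh after both treatments, in opposite directions. *Clock* was higher and *Arntl* was lower than in Veh after retinoic acid, after nutrient restriction and after both. *Clock* (chr5:76209868-76304792, minus strand), which encodes the partner with histone acetyltransferase activity, had 48.7 and 58.4 CPM in the Veh libraries, 86.5 and 95.8 with RA, 75.9 and 73.7 with NR, and 101 and 95.8 with NRRA. Every treated library lay above both Veh libraries, and the RA and NRRA libraries overlapped. On the log2 scale RA differed from Veh by 0.77 (SE 0.0681, adjusted p = 7.6e-10), NR by 0.48 (SE 0.0692, adjusted p = 2.37e-06) and NRRA by 0.88 (SE 0.0669, adjusted p = 1.39e-11), all from edgeR's quasi-likelihood test with Benjamini-Hochberg adjustment over all genes tested.

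*Arntl* (chr7:113207465-113314126, plus strand), the gene of BMAL1, had 44.2 and 48 CPM in the Veh libraries, 29.3 and 29.3 with RA, 34.4 and 34.8 with NR, and 24.3 and 22.8 with NRRA. The 4 groups did not overlap, and their order from high to low was Veh, NR, RA and NRRA. Relative to Veh, RA differed on the log2 scale by -0.65 (SE 0.0667, edgeR adjusted p = 1.09e-08), NR by -0.41 (SE 0.0654, edgeR adjusted p = 9.74e-06) and NRRA by -0.97 (SE 0.0668, edgeR adjusted p = 1.88e-12). The exons of *Arntl* share 33 bases, 0.439% of its exon length, with *Gm45355* on the opposite strand.

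Since the 2 genes moved apart, their ratio within a library, which does not depend on how libraries are scaled, moved further than either level. For each count of *Clock* there were 0.907 and 0.822 counts of *Arntl* in the Veh libraries, 0.338 and 0.306 with RA, 0.453 and 0.472 with NR, and 0.24 and 0.238 with NRRA. The groups did not overlap. Ratios between genes are given as values, and no test was run on them.

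**Figure D1:**
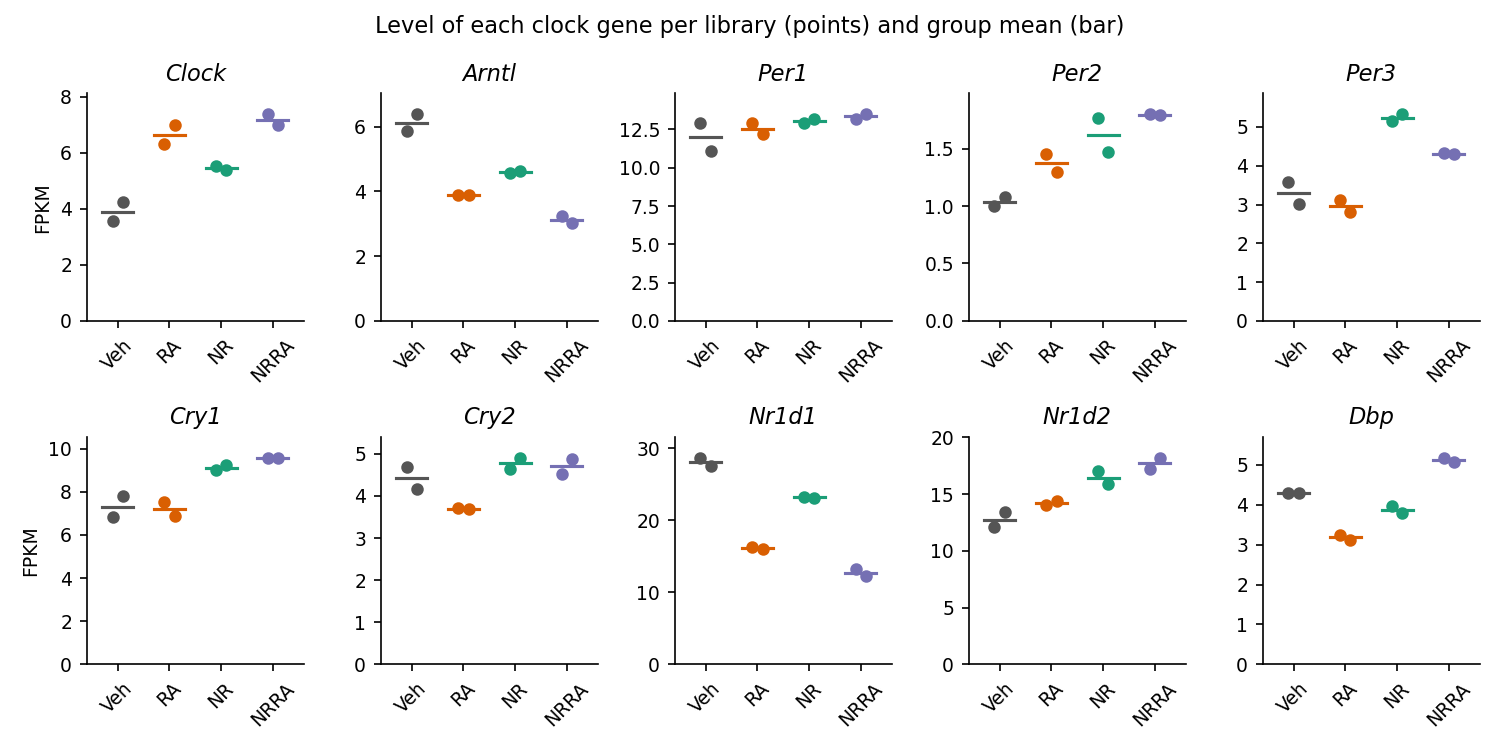
Level of each clock gene in FPKM (vertical axis, from 0, with its own scale for each gene) in the 4 groups, with a point for each of the 2 libraries and a bar for the mean. *Arntl* and *Nr1d1* are lower in all treated libraries than in Veh, *Clock* is higher in all of them, and *Per1* changes least.

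The *Per* genes, which encode the repressors that enter the nucleus with the cryptochromes, did not move as a group. *Per3* and *Per2* were higher under nutrient restriction, *Per2* was also higher in RA, and *Per1* varied little between groups. *Per3* (chr4:151003652-151044665, minus strand) had 34.3 and 29 CPM in the Veh libraries, 29.9 and 26.9 with RA, 49.5 and 51.2 with NR, and 41.5 and 41.4 with NRRA. Libraries without and with restricted medium did not overlap, while RA overlapped Veh. In log2 terms NR differed from Veh by 0.67 (SE 0.0722, edgeR adjusted p = 2.17e-08), NRRA by 0.39 (SE 0.0721, edgeR adjusted p = 5.03e-05) and RA by -0.17 (SE 0.0774, edgeR adjusted p = 0.0849). The RA value passed the test without Veh replicate 2 (-0.27, edgeR adjusted p = 0.00519) and without RA replicate 1 (-0.24, edgeR adjusted p = 0.0491). The fibroblast marker sum was also higher in the NR and NRRA libraries, and its part in the *Per3* difference was not tested.

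*Per2* (chr1:91415982-91459324, minus strand), the *Per* gene with the lowest level, had 5.84 and 6.31 CPM in the Veh libraries, 8.51 and 7.63 with RA, 10.4 and 8.58 with NR, and 10.5 and 10.5 with NRRA. All treated libraries were above both Veh libraries. Measured in log2 against Veh, NR differed by 0.63 (SE 0.129, edgeR adjusted p = 0.000256), NRRA by 0.79 (SE 0.123, edgeR adjusted p = 4.01e-06) and RA by 0.40 (SE 0.132, edgeR adjusted p = 0.0165). The RA call was lost with DESeq2 (adjusted p = 0.0996) and, in edgeR, without Veh replicate 1 (0.37, adjusted p = 0.0794) and without RA replicate 1 (0.33, adjusted p = 0.102).

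*Per1* (chr11:69095217-69109960, plus strand), the *Per* gene that responds fastest to hormones and growth factors, had 72.4 and 62.6 CPM in the Veh libraries, 72.6 and 68.6 with RA, 72.7 and 74.3 with NR, and 74.4 and 75.9 with NRRA. The 2 Veh libraries were further apart than the group means. On the log2 scale RA differed from Veh by 0.06 (SE 0.0613, edgeR adjusted p = 0.457), NR by 0.12 (SE 0.0612, edgeR adjusted p = 0.113) and NRRA by 0.15 (SE 0.06, edgeR adjusted p = 0.0307). The NRRA call was lost without Veh replicate 2 (0.05, edgeR adjusted p = 0.457), without NRRA replicate 1 (0.17, edgeR adjusted p = 0.0762), without NRRA replicate 2 (0.14, edgeR adjusted p = 0.154) and with DESeq2 (adjusted p = 0.207). Without Veh replicate 1 the NR and RA values passed the test, at 0.25 (edgeR adjusted p = 0.000773) and 0.19 (edgeR adjusted p = 0.0102). Counts of *Per3* for each count of *Per1* were 0.474 and 0.463 in the Veh libraries, 0.411 and 0.393 with RA, 0.681 and 0.69 with NR, and 0.558 and 0.545 with NRRA, and the NR and NRRA libraries were again above Veh and RA. *Per1* had 12.4 and 9.93 counts for each count of *Per2* in the Veh libraries, 8.53 and 8.99 with RA, 7.02 and 8.65 with NR, and 7.05 and 7.25 with NRRA.

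The 2 cryptochrome genes, whose products are the main inhibitors of CLOCK and BMAL1, differed in which treatment they followed. *Cry1* (chr10:85131700-85185064, minus strand) had 22.7 and 26.1 CPM in the Veh libraries, 25.1 and 23 with RA, 30.1 and 30.8 with NR, and 31.9 and 32 with NRRA. Restricted medium gave the higher libraries whether or not retinoic acid was present, and RA overlapped Veh. Relative to Veh, NR differed on the log2 scale by 0.32 (SE 0.0768, edgeR adjusted p = 0.00119), NRRA by 0.39 (SE 0.0743, edgeR adjusted p = 6e-05) and RA by -0.03 (SE 0.0792, edgeR adjusted p = 0.805).

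*Cry2* (chr2:92403646-92434043, minus strand) had 29.6 and 26.4 CPM in the Veh libraries, 23.5 and 23.2 with RA, 29.4 and 31 with NR, and 28.6 and 30.8 with NRRA. RA was the only group below the other libraries, and Veh, NR and NRRA overlapped. In log2 terms RA differed from Veh by -0.26 (SE 0.0773, edgeR adjusted p = 0.00729), NR by 0.11 (SE 0.0747, edgeR adjusted p = 0.245) and NRRA by 0.09 (SE 0.0729, edgeR adjusted p = 0.321). The RA call was lost without Veh replicate 1 (-0.15, edgeR adjusted p = 0.186) and without RA replicate 2 (-0.25, edgeR adjusted p = 0.0633), and the NR value passed without Veh replicate 1 (0.22, edgeR adjusted p = 0.0404). *Cry2* shares 295 exon bases, 4.67% of its exon length, with *D930015M05Rik* on the opposite strand. *Cry1* counts for each *Cry2* count were 0.768 and 0.988 in Veh, and between 0.988 and 1.12 in the 6 treated libraries.

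The 2 REV-ERB genes went in opposite directions. *Nr1d1* had the largest fall of the 10 genes and was the only one past the test with a 2-fold difference from Veh, in NRRA, and *Nr1d2* was higher in NR and NRRA. *Nr1d1* (chr11:98767932-98775333, minus strand) had 88.4 and 84.6 CPM in the Veh libraries, 50.1 and 49.3 with RA, 71.7 and 71 with NR, and 40.7 and 38 with NRRA. The 4 groups did not overlap and had the same order as for *Arntl*. Measured in log2 against Veh, RA differed by -0.80 (SE 0.0561, edgeR adjusted p = 8.85e-12), NR by -0.28 (SE 0.0542, edgeR adjusted p = 0.00014) and NRRA by -1.14 (SE 0.0562, edgeR adjusted p = 1.84e-15). The gene overlaps *Thra*, a thyroid hormone receptor gene on the opposite strand, over 263 exon bases, or 8.55% of the exon length of *Nr1d1*, and the strand setting of the counting was not given in the sources used here. *Thra* itself differed by 0.67 in NR, -0.48 in RA and 0.18 in NRRA (edgeR adjusted p = 1.16e-09, 2.08e-06 and 0.0142). Both genes were lower in RA, while in NR and NRRA *Thra* was higher and *Nr1d1* lower.

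*Nr1d2* (chr14:18204054-18239127, minus strand) had 65.4 and 72.7 CPM in the Veh libraries, 75.5 and 78 with RA, 91.7 and 86 with NR, and 93.2 and 98.2 with NRRA. Every treated library was above both Veh libraries. On the log2 scale NR differed from Veh by 0.36 (SE 0.0582, edgeR adjusted p = 1.15e-05), NRRA by 0.47 (SE 0.057, edgeR adjusted p = 7.35e-08) and RA by 0.16 (SE 0.0588, edgeR adjusted p = 0.0349). The RA value did not hold, with edgeR adjusted p between 0.0518 and 0.214 without Veh replicate 1, without either RA replicate or without either NRRA replicate and with DESeq2 at 0.121, and it turned to -0.07 (adjusted p = 0.233) when the trend with GC content and length was removed. In counts, *Nr1d1* to *Nr1d2* was 1.35 and 1.16 in the Veh libraries, 0.663 and 0.632 with RA, 0.782 and 0.825 with NR, and 0.436 and 0.387 with NRRA.

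**Figure D2:**
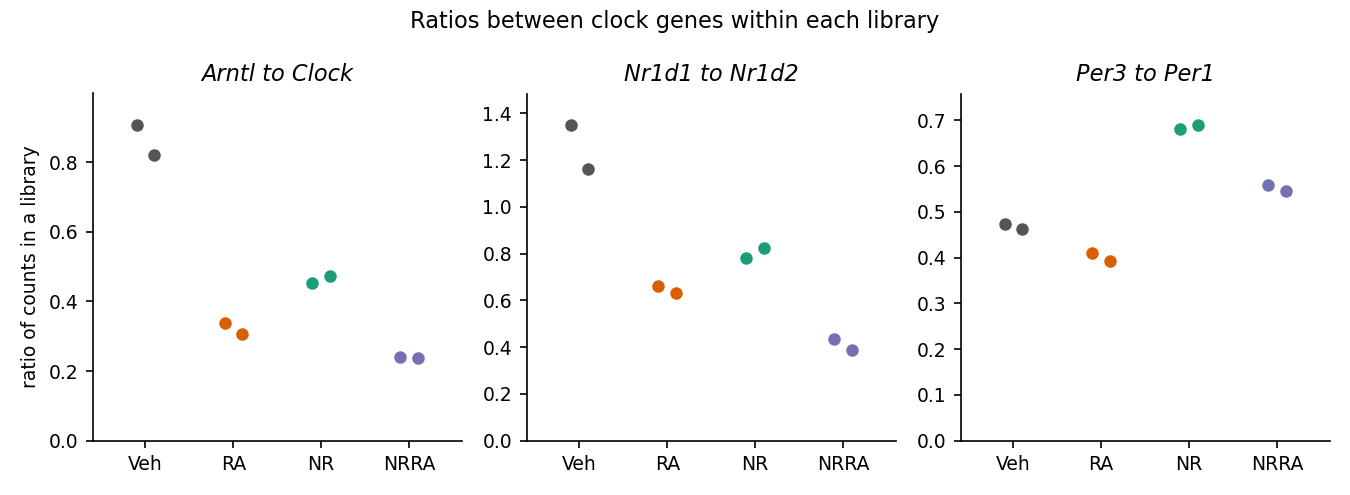
Ratio of counts between 2 clock genes in each of the 8 libraries (vertical axes, from 0) for *Arntl* to *Clock*, *Nr1d1* to *Nr1d2* and *Per3* to *Per1*, with a point per library. The first 2 ratios are highest in Veh and lowest in NRRA, and the third is highest in NR.

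*Dbp* (chr7:45705088-45710203, plus strand) is the output gene. It alone of the 10 passed the test as lower with retinoic acid in complete medium and as higher with it in restricted medium. It had 12.8 and 12.9 CPM in the Veh libraries, 9.69 and 9.33 with RA, 11.9 and 11.4 with NR, and 15.5 and 15.2 with NRRA. The 4 groups did not overlap. Relative to Veh, RA differed on the log2 scale by -0.44 (SE 0.1, edgeR adjusted p = 0.000864), NR by -0.15 (SE 0.0974, edgeR adjusted p = 0.227) and NRRA by 0.25 (SE 0.0903, edgeR adjusted p = 0.0179). The NRRA call was lost without Veh replicate 1 (0.25, edgeR adjusted p = 0.055), without NRRA replicate 1 (0.24, edgeR adjusted p = 0.0811), without NRRA replicate 2 (0.27, edgeR adjusted p = 0.0504) and with DESeq2 (adjusted p = 0.212). *Dbp* shares 539 exon bases, 18% of its exon length, with *Sphk2*, a sphingosine kinase gene on the opposite strand. *Sphk2* differed from Veh by -0.22 in NR, -0.25 in RA and -0.32 in NRRA (edgeR adjusted p = 0.00655, 0.0023 and 6.57e-05), and *Dbp* had 0.192 to 0.247 counts for each *Sphk2* count in Veh, RA and NR against 0.335 and 0.326 in NRRA.

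Counted over the 10 genes, 5 were higher and 2 were lower in NR than in Veh, where 43.9% of all genes tested passed the test in either direction, 21.7% higher and 22.2% lower. In RA 3 were higher and 4 lower against 43.2% of all genes, 19.8% higher and 23.4% lower. In NRRA 7 were higher and 2 lower against 58.9%, 30.1% higher and 28.7% lower. The 3 comparisons share the Veh libraries. Their median log2 fold change was 0.22 in NR, -0.10 in RA and 0.32 in NRRA, beside 0.01, -0.02 and 0.03 over all genes. In absolute value the medians were 0.34, 0.33 and 0.43, beside 0.27, 0.26 and 0.38 over all genes. By the stricter rule that also asked for a 2-fold difference, *Nr1d1* in NRRA was the single call, in a comparison in which 15.9% of all genes met that rule and 6.02% were lower by it. *Arntl* lay just short of it and passed it without Veh replicate 1 (-1.03) and without NRRA replicate 1 (-1.02), and *Clock* passed it without Veh replicate 2 (1.01). In the other pairwise comparisons the largest difference of any of the 10 genes was -0.86, for *Nr1d1* between NRRA and NR.

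**Figure D3:**
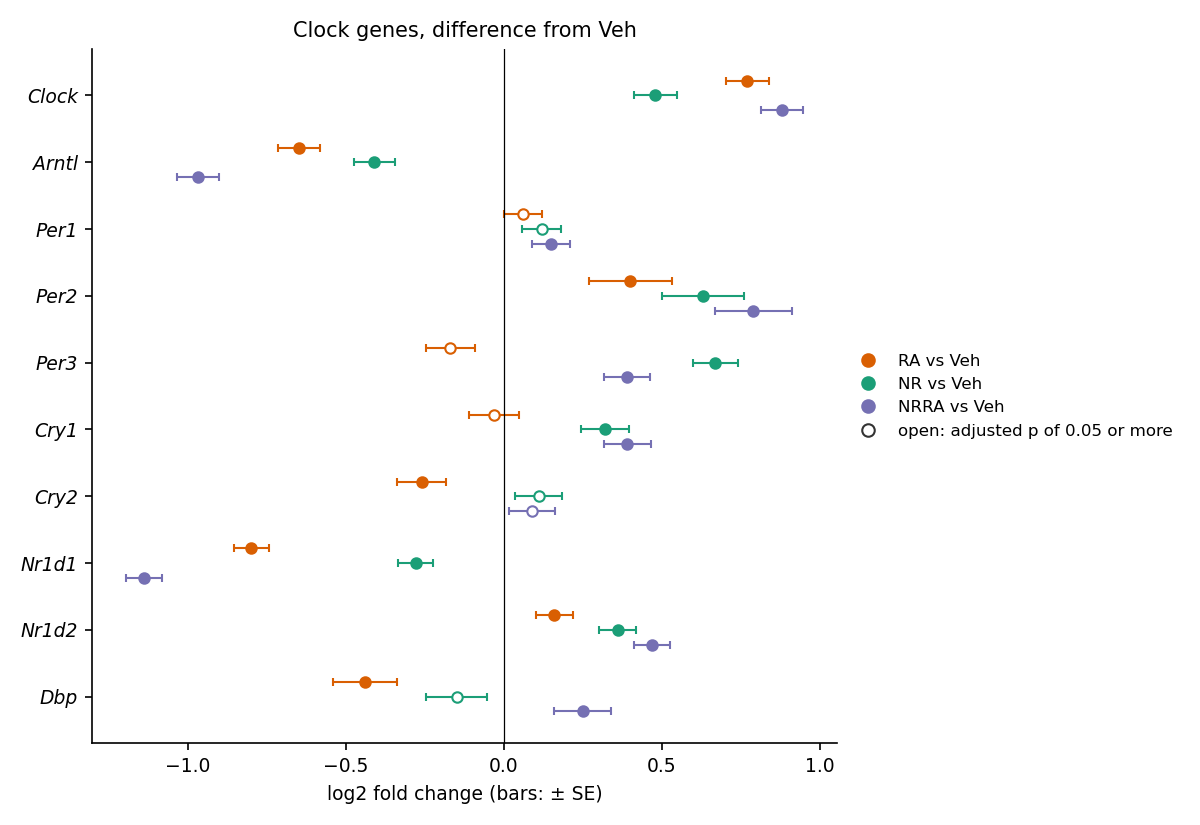
Log2 fold change against Veh (horizontal axis, bars ± SE) of the 10 clock genes in RA, NR and NRRA, with open points where the edgeR adjusted p was 0.05 or more. *Nr1d1* reaches -1.14 and *Clock* 0.88 in NRRA. The RA and NR points fall on opposite sides of 0 for *Per3*, *Cry2* and *Cry1*, the last with RA at -0.03.

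NRRA against RA compares restricted with complete medium in the presence of retinoic acid. Here 6 of the 10 genes were higher and 2 lower, where 40.3% of all genes passed, 20.9% higher and 19.4% lower. The higher genes were *Dbp* (log2 fold change 0.69, SE 0.0918, edgeR adjusted p = 6.71e-07), *Per3* (0.55, SE 0.0712, edgeR adjusted p = 4.25e-07), *Cry1* (0.42), *Per2* (0.39), *Cry2* (0.35) and *Nr1d2* (0.32). *Nr1d1* (-0.34, edgeR adjusted p = 3.14e-05) and *Arntl* (-0.32, edgeR adjusted p = 0.000551) were lower. *Per2* in this comparison lost its call without RA replicate 2 (0.30, edgeR adjusted p = 0.12) and with DESeq2 (adjusted p = 0.106). *Clock* (0.11, edgeR adjusted p = 0.181) and *Per1* (0.09, edgeR adjusted p = 0.225) did not pass.

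Retinoic acid added to restricted medium, NRRA against NR, gave 2 higher and 3 lower genes, where 43.4% of all genes passed, 21.3% higher and 22.1% lower. *Clock* (0.40, SE 0.0634, edgeR adjusted p = 1.03e-05) and *Dbp* (0.40, SE 0.0889, edgeR adjusted p = 0.000543) were higher. *Nr1d1* (-0.86, SE 0.0563, edgeR adjusted p = 1.54e-12), *Arntl* (-0.56, SE 0.0677, edgeR adjusted p = 1.7e-07) and *Per3* (-0.28, SE 0.0663, edgeR adjusted p = 0.00103) were lower. The differences of the other 5 genes ran from -0.02 for *Cry2* to 0.16 for *Per2*.

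Set directly against each other, the single treatments differed in 8 of the 10 genes, with 7 higher and 1 lower in NR than in RA, where 48.3% of all genes passed, 24.5% higher and 23.8% lower. *Per3* had the largest difference (0.84, SE 0.0714, edgeR adjusted p = 1.83e-10), followed by *Nr1d1* (0.52, SE 0.0562, edgeR adjusted p = 1.39e-08). *Cry2* (0.37), *Cry1* (0.35), *Dbp* (0.29), *Arntl* (0.24) and *Nr1d2* (0.21) were higher as well, and *Clock* was lower (-0.29, SE 0.0646, edgeR adjusted p = 0.000512). *Dbp* lost its call without RA replicate 2 (0.26, edgeR adjusted p = 0.124), without NR replicate 1 (0.26, edgeR adjusted p = 0.0955), without NR replicate 2 (0.32, edgeR adjusted p = 0.0526) and with DESeq2 (adjusted p = 0.128), and *Nr1d2* without NR replicate 1 (0.16, edgeR adjusted p = 0.0778). *Per2* (0.23, edgeR adjusted p = 0.111) passed without NR replicate 2 (0.36, edgeR adjusted p = 0.0434), and *Per1* differed by 0.06 (edgeR adjusted p = 0.427).

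The interaction term, the difference between NRRA and NR minus that between RA and Veh, asks whether the response to retinoic acid depended on the medium. Of the 10 genes 1 passed in each direction, where 13% of all genes passed, 6.37% higher and 6.58% lower. *Dbp* had an interaction of 0.84 on the log2 scale (SE 0.134, edgeR adjusted p = 6.41e-05), and *Clock* had one of -0.37 (SE 0.0931, edgeR adjusted p = 0.00714), being raised by retinoic acid in both media but less in restricted medium. The *Clock* call was lost without RA replicate 2 (-0.29, edgeR adjusted p = 0.0942) and without NRRA replicate 2 (-0.33, edgeR adjusted p = 0.0596), and the value was -0.54 without Veh replicate 2 and -0.24 (adjusted p = 0.00878) with the trend with GC content and length removed. The *Dbp* call held with each library left out. For the other 8 genes the estimate lay between -0.24 for *Per2* (SE 0.172) and 0.24 for *Cry2* (SE 0.104), and *Nr1d1* and *Arntl*, the 2 genes that fell with both treatments, had estimates of -0.06 (SE 0.0795) and 0.10 (SE 0.0952). For *Sphk2*, which overlaps *Dbp*, it was 0.14 (SE 0.0878, edgeR adjusted p = 0.346).

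**Figure D4:**
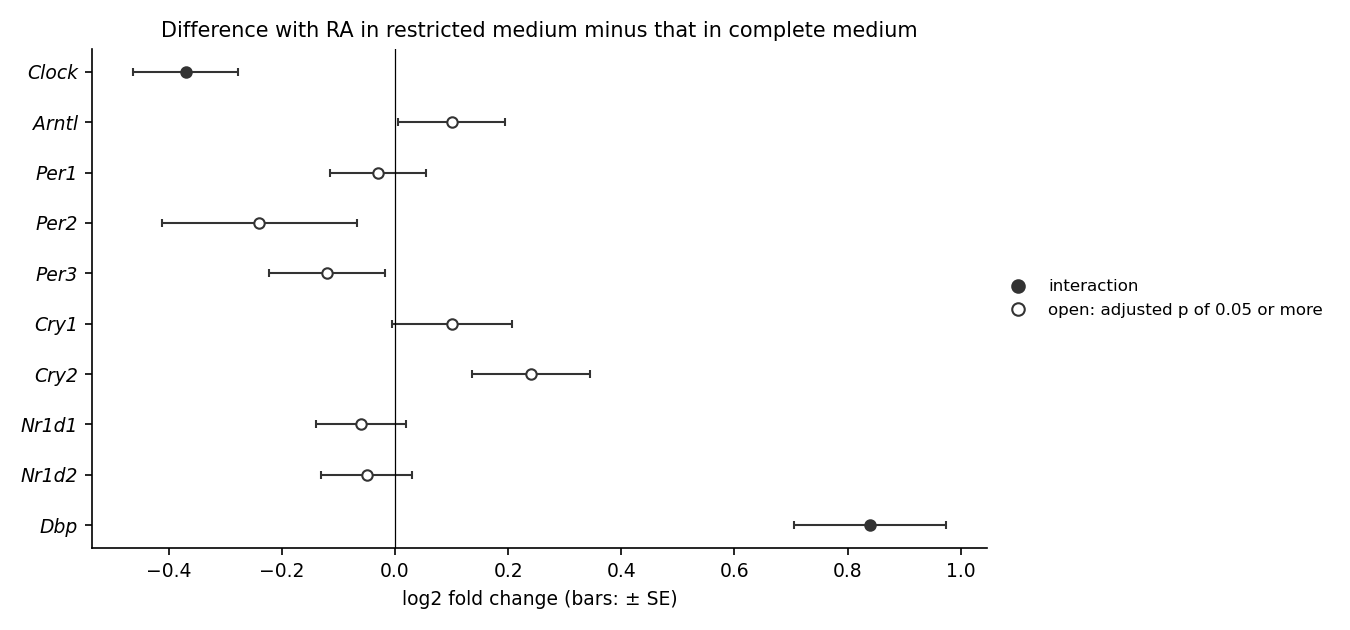
Interaction of retinoic acid and medium (horizontal axis, log2 scale, bars ± SE) for each of the 10 clock genes, with open points where the edgeR adjusted p was 0.05 or more. *Dbp* stands apart at 0.84, *Clock* lies at -0.37 and the other 8 genes lie within 0.24 of 0.

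Levels of different genes were compared as FPKM, the CPM per kilobase of exon. *Nr1d1* was the highest of the 10 genes in Veh at 28.1, in RA at 16.2 and in NR at 23.2 FPKM. In NRRA it had fallen to 12.8, and *Nr1d2* came first at 17.7, with *Per1* at 13.3 overlapping *Nr1d1*. In Veh *Nr1d1* was followed by *Nr1d2* (12.8) and *Per1* (12), which overlapped, and then by *Cry1* (7.3) and *Arntl* (6.13). *Cry2* (4.43) and *Dbp* (4.29) overlapped there, as did *Clock* (3.9) and *Per3* (3.3). *Per2* was the lowest of the 10 in every group, from 1.04 in Veh to 1.79 in NRRA. *Arntl* stood above *Clock* in Veh and below it in the other groups, with 3.89 against 6.64 in RA, 4.6 against 5.45 in NR and 3.13 against 7.18 in NRRA.

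The rest of the clock machinery was represented by 36 related genes, all of them tested. Of these 10 were higher and 12 lower in NR than in Veh, 8 and 13 in RA, and 10 and 15 in NRRA, beside the 43.9%, 43.2% and 58.9% of all genes given for those comparisons. Among 13 further transcription factors of the loops the counts were 4 higher and 3 lower in NR, 1 and 5 in RA, and 4 and 4 in NRRA. The 16 genes of kinases, ubiquitin ligase subunits and other modifiers of clock proteins gave 4 and 5, 4 and 6, and 4 and 8, and the 7 output genes gave 2 and 4, 3 and 2, and 2 and 3. Named by role are 7 that passed the test with a 2-fold difference in at least 1 pairwise comparison.

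The repressors *Bhlhe40* and *Bhlhe41*, which encode DEC1 and DEC2 and compete for E-boxes, fell in all treated groups. *Bhlhe40* had 73.9 and 70.8 CPM in the Veh libraries, 46.8 and 46.2 with RA, 30.7 and 27.4 with NR, and 22.2 and 19.6 with NRRA, with a log2 fold change of -1.32 in NR (SE 0.0677), -0.64 in RA (SE 0.0637) and -1.80 in NRRA (SE 0.0685, edgeR adjusted p = 7.38e-18). *Bhlhe41* had 52.6 and 51.4 CPM in the Veh libraries, 11.5 and 11.4 with RA, 37 and 37.1 with NR, and 10.8 and 11.5 with NRRA, with a log2 fold change of -2.18 in RA (SE 0.074) and -0.49 in NR (SE 0.0623). *Bhlhe40* was thus lowest where restricted medium was used and *Bhlhe41* where retinoic acid was used, and 19% of the exon bases of *Bhlhe41* overlap *Gm43909*. *Nfil3*, the D-box repressor that opposes *Dbp*, was higher in NR at 0.75 (SE 0.0991, edgeR adjusted p = 6.37e-07), lower in RA at -0.35 (SE 0.112, edgeR adjusted p = 0.0137) and differed by 0.05 in NRRA (edgeR adjusted p = 0.721).

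Of the modifiers, *Prkaa2*, a catalytic subunit of the energy sensor AMPK, which can phosphorylate cryptochromes, was higher in RA at 1.12 (SE 0.163, edgeR adjusted p = 3.42e-06) and in NRRA at 0.96 (SE 0.161, edgeR adjusted p = 1.29e-05). In NR it differed by 0.25 (SE 0.183, edgeR adjusted p = 0.291). Among the outputs, *Noct*, which encodes nocturnin, was lower in NR at -0.88 (SE 0.0624) and higher in RA at 0.60 (SE 0.0568), with 73.8 and 74.4 CPM in the Veh libraries, 115 and 109 with RA, 42.2 and 38.5 with NR, and 57.5 and 52.7 with NRRA. *Por*, the cytochrome P450 reductase gene, had the same directions, at -0.92 in NR (SE 0.0466) and 0.24 in RA (SE 0.0445). Neither gene met the 2-fold rule against Veh. *Noct* met it in NR against RA (-1.48, SE 0.0597) and in NRRA against RA (-1.03, SE 0.0563), and *Por* in NR against RA (-1.16, SE 0.046). *Pdk4*, a kinase that limits the entry of pyruvate into the citric acid cycle, was higher in all treated groups, at 0.90 in NR (SE 0.128), 1.69 in RA (SE 0.117) and 1.70 in NRRA (SE 0.114). Its interaction was -0.90 (SE 0.156, edgeR adjusted p = 0.000199), and NRRA differed from RA by 0.01 (edgeR adjusted p = 0.965).

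**Figure D5:**
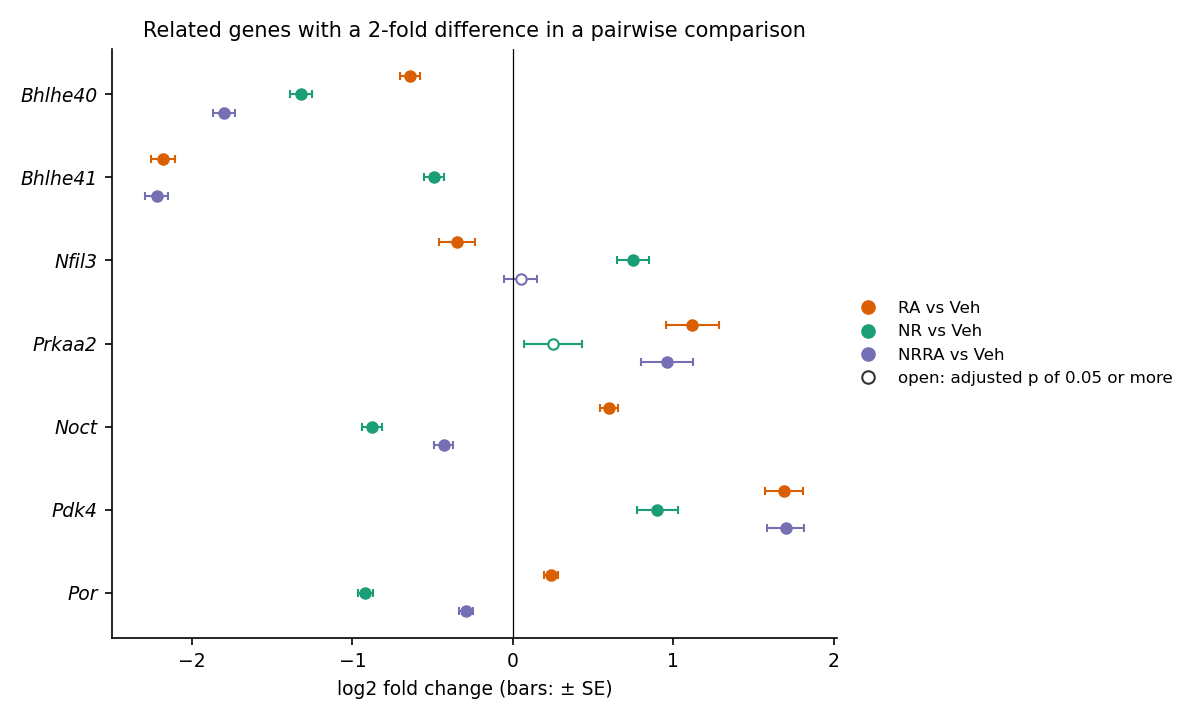
Log2 fold change against Veh (horizontal axis, bars ± SE) in RA, NR and NRRA of 7 related genes that passed the 2-fold rule in a pairwise comparison, with open points where the edgeR adjusted p was 0.05 or more. *Bhlhe41* falls most with retinoic acid, *Bhlhe40* falls most with nutrient restriction, and *Nfil3*, *Noct* and *Por* have opposite signs in RA and NR.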

How the data were processed

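RNA was measured by stranded mRNA sequencing of 8 libraries, 2 per group, described in the study's reporting summary as independent biological replicates. Per the labels the reads were processed with bcl2fastq, STAR 2.6.1c and featureCounts 1.6.4 on mm10, while the study's reporting summary names another version of STAR. The strand setting of the counting was not given in the sources used here. The values deposited by the authors are raw counts per gene, not normalised, for 55421 identifiers, of which 55240 were found in GENCODE M21 and all 8 columns mapped to a sample.

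From these counts, edgeR 4.0.16 in R 4.3.3 (filterByExpr, TMM, quasi-likelihood F test) was fitted to all 8 libraries with 1 coefficient per group and 4 residual degrees of freedom, and p-values were adjusted by the Benjamini-Hochberg method over the 20477 genes tested. A gene passed at an adjusted p under 0.05, and the stricter rule added a 2-fold difference. CPM used TMM-scaled totals and FPKM divided CPM by the union exon length. SE is the log2 fold change divided by the square root of F. Total counts of 19261333 to 30023585 set the precision, and low genes such as *Per2* have the widest errors. The script was tested on simulated data. Genes sharing exon bases were found from the GENCODE annotation, and promoter windows came from RefSeq on GRCm38.p6.

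Named genes were all 10 clock genes, related genes past the stricter rule in any pairwise comparison, and, of 2 lists of genes induced together with *Per1* (early response and glucocorticoid), those past it in NR or RA against Veh. Marker lists of germ cells, undifferentiated spermatogonia, fibroblasts, Sertoli cells, Leydig cells and macrophages are given as sums, with counts of the markers past the test. The values of 1 related gene past the stricter rule are not reported here. The genes and lists were chosen with earlier results of these data known. Alternatives were DESeq2 1.42.0, RLE normalization (relative log expression), no filter on low counts, the replicate number as a block, each library left out in turn, and, added after seeing the data, removal of the trend with GC content and length, for which 20448 of the tested genes had values. The replicate numbers did not pair the libraries.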

Additional observations from a re-analysis of the deposited data

Results flagged for a closer look

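For 2 of the 10 clock genes the difference with retinoic acid itself differed between the media, by the interaction term of the edgeR fit. The interaction of *Dbp* was 0.84 on the log2 scale (SE 0.134, edgeR adjusted p = 6.41e-05), with a log2 fold change with retinoic acid of -0.44 in complete and 0.40 in restricted medium, and both NRRA libraries were above all other libraries. The interaction of *Clock* was -0.37 (SE 0.0931, edgeR adjusted p = 0.00714), with a log2 fold change of 0.77 in complete and 0.40 in restricted medium, and it was -0.29 (edgeR adjusted p = 0.0942) without RA replicate 2, -0.33 (edgeR adjusted p = 0.0596) without NRRA replicate 2 and -0.24 (edgeR adjusted p = 0.00878) with the trend with GC content and length removed.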

How the results depend on the processing

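Of 350 values of single clock genes under the 5 settings other than leaving out a library, 331 kept their direction and their side of the threshold and 7 changed sign, and of 560 with 1 of the 8 libraries left out, 523 kept both and 9 changed sign. *Nr1d2* in RA against Veh, -0.07 when the trend with GC content and length was removed, was the only one of these sign changes in which the value had passed the test. With that trend removed the others were *Clock* in NRRA against RA (-0.00), *Per1* in NR against RA (-0.04), *Cry1* in RA against Veh (0.04), *Cry2* (0.02) and *Nr1d2* (-0.02) in NRRA against NR, and the *Nr1d2* interaction (0.05). With 1 library left out, values crossed 0 for *Per1* in RA against Veh (-0.02 to 0.19), in NRRA against NR (-0.00 to 0.05) and in the interaction (-0.17 to 0.04), for *Cry1* in RA against Veh (-0.10 to 0.09) and in the interaction (-0.03 to 0.16), and for *Cry2* in NRRA against NR (-0.08 to 0.03). The clock genes past the test numbered 7 to 9 in NR, 5 to 8 in RA and 7 to 9 in NRRA against Veh with 1 library left out, 7 to 8 in NRRA against RA, 5 in NRRA against NR, 6 to 8 in NR against RA and 1 to 2 for the interaction. By the 2-fold rule in NRRA against Veh there were 2 genes with DESeq2, 2 with the GC and length trend removed, and 1 to 2 with 1 library left out, *Arntl* being the second gene in the first 2 settings, at -1.02 with the trend removed. With the trend removed, *Per1* passed in NR (0.16, adjusted p = 0.0058) and RA (0.20, adjusted p = 0.000919), *Cry2* passed in NRRA (0.15, adjusted p = 0.0436) and no longer in RA (-0.15, adjusted p = 0.0804), and the cause was not tested. The RLE normalization took *Per1* in NRRA to 0.13 (adjusted p = 0.065), and without a filter on low counts *Nr1d2* in RA came to 0.14 (adjusted p = 0.0539). With the replicate number as a block 70 of 70 values kept their call, and the *Dbp* interaction was 0.84 (adjusted p = 8.77e-05), although same-numbered libraries did not deviate together, with correlations of -0.0334 to 0.0225. That interaction lay between 0.72 and 0.87 under all settings tried. Over all genes the interaction passed for 2652 genes in edgeR and 1587 in DESeq2, and with 1 library left out for between 1642 genes, without RA replicate 2, and 3776, without Veh replicate 2, with 1727 without NR replicate 1 and 1753 without NRRA replicate 2. The *Clock* interaction was -0.24 with the GC and length trend removed (adjusted p = 0.00878). RNA of feeder cells, the single time of collection and 2 libraries per group limit all of these values.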

Other observations

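Genes that are induced together with *Per1* by outside signals were counted as 2 lists. Of 9 early response genes, 4 were lower in NR than in Veh, with a median log2 fold change of -0.29, while 3 were higher and 2 lower in RA and 2 were higher and 5 lower in NRRA. Of 7 genes of the glucocorticoid response, 4 were higher and 3 lower in NR, 3 and 3 in RA, and 1 and 4 in NRRA, beside the 43.9%, 43.2% and 58.9% of all genes past the test in those comparisons. The largest single difference was that of *Errfi1*, an inhibitor of EGF receptor signalling, with a log2 fold change of -2.67 in NR (SE 0.05, edgeR adjusted p = 4.8e-24), -2.10 in NRRA (SE 0.0472, edgeR adjusted p = 9.39e-23) and 0.15 in RA (SE 0.0436, edgeR adjusted p = 0.00842). *Sgk1*, a kinase gene that responds to glucocorticoids and serum, was lower in RA at -1.23 (SE 0.0688, edgeR adjusted p = 1.02e-13) and in NRRA at -1.64 (SE 0.0693, edgeR adjusted p = 7.06e-17). In NR it was higher at 0.33 (SE 0.0611, edgeR adjusted p = 6.75e-05).

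*Tef* and *Hlf*, which encode the D-box activators related to DBP, were picked here after their values were seen. *Tef* had 67.9 and 61.4 CPM in the Veh libraries, 58.6 and 58.7 with RA, 82.8 and 82.7 with NR, and 90.4 and 89.2 with NRRA. Against Veh it was higher in NR by 0.36 (SE 0.0555, edgeR adjusted p = 8.02e-06), where *Dbp* differed by -0.15 (edgeR adjusted p = 0.227), and between NRRA and NR it differed by 0.12 (edgeR adjusted p = 0.072), where *Dbp* rose by 0.40 (edgeR adjusted p = 0.000543). The interaction of *Tef* was 0.26 (SE 0.0774, edgeR adjusted p = 0.0255), and that of *Hlf* was 0.26 (SE 0.178, edgeR adjusted p = 0.399). The ROR receptor gene *Rora*, also picked after its values were seen, had an interaction of -0.54 (SE 0.103, edgeR adjusted p = 0.00061).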
